A study of Mus musculus with 8 samples.

Results

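The genes of fatty acid and triglyceride synthesis were examined on Affymetrix microarrays of RNA from the perivascular fat that surrounds the thoracic aorta. The list holds 32 genes, taken by name for their place in the pathway. Of these, 30 had a probe set that the platform annotation assigns to that gene alone, out of 18782 genes so measured. G6pdx has no probe set of that kind and Acsl3 shares its probe set with Utp14b, so neither is described. The groups were 4 arrays of mice with the genotype label RictoraP2KO and 4 arrays of control mice with the label Rictorfl/fl. The control genotype thus carries the floxed Rictor allele, and per the series title the deletion affects brain and fat; aP2 is another name of Fabp4, whose promoter is active in fat cells. Every mouse was male and 17 to 22 weeks old, was starved overnight and was killed at 9 am. Nothing in the labels says whether each sample is 1 animal or a pool, so a p-value here reflects only how far these samples spread.

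Fatty acid synthesis uses cytosolic acetyl-CoA, which comes from citrate or acetate, and NADPH, which comes from malic enzyme and the pentose phosphate pathway. Acetyl-CoA carboxylase makes malonyl-CoA, fatty acid synthase builds palmitate from it, and elongases and desaturases modify the product. Acyl-CoA synthetases activate fatty acids, and a chain of acyltransferases and a phosphatase then joins them to glycerol to form triglyceride. Insulin, through Akt and the transcription factor SREBP1c, and carbohydrate, through ChREBP, are known to raise transcription of many genes of this pathway. Fasting is known to lower it. Brown-type fat, which surrounds the thoracic aorta of the mouse, makes fatty acids as well as burning them. Rictor is a subunit found in mTOR complex 2 and not in complex 1, and complex 2 phosphorylates Akt.

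Promoters of some genes of this pathway are known places where SREBP1c and ChREBP act. SREBP1c works with NF-Y, which binds the CCAAT box, and ChREBP binds pairs of E-boxes. RefSeq windows of assembly GRCm38.p6, from 250 bases before to 50 after a start, matched 25 of the 30 measured genes, with 33 windows. Of these windows 15 held the CCAAT box (CCAAT, or ATTGG on the other strand), 45.5%, where 37.4% of all 32851 windows did. The E-box CACGTG, which reads the same on both strands, was in 4 windows (12.1%, against 7.15% of all windows). The sterol response element TCACNCCAC, searched on both strands, was in 1 window, of Mlxipl (3.03%, against 1.24%). A match is a description of these letters and not of a bound site. The 120 bases before the start are printed for the genes with the smallest p or largest difference (Acss2, Mlxipl, Pnpla3) and for Fasn, Thrsp and Gpam, which show how arrays differ, with Acss2 at chr2:155517923-155518042 (plus strand), Pnpla3 at chr15:84167696-84167815 (plus strand), Fasn at chr11:120824548-120824667 (minus strand), Thrsp at chr7:97417551-97417670 (minus strand), Gpam at chr19:55127239-55127358 (minus strand) and Mlxipl at chr5:135089770-135089889 (plus strand). Capitals mark the CCAAT box in either orientation and, in Mlxipl, the E-box. Only windows that hold the marked motif in these bases were printed, so its presence in each sequence was set by that choice. The Fasn sequence holds 3 CCAAT boxes, of which 2 on opposite strands share bases, and the Thrsp sequence holds 2.
Acss2: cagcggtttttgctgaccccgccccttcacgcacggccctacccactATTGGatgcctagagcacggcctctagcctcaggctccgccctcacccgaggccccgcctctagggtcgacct
Pnpla3: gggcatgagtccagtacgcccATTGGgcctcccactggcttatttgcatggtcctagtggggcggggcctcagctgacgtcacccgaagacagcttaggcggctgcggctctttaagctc
Fasn: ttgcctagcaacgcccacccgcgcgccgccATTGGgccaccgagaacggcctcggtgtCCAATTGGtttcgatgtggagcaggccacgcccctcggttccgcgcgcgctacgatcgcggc
Thrsp: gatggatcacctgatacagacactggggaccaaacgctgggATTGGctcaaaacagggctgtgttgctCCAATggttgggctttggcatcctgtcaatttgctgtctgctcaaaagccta
Gpam: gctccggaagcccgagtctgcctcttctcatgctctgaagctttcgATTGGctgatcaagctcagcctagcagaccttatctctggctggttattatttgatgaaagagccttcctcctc
Mlxipl: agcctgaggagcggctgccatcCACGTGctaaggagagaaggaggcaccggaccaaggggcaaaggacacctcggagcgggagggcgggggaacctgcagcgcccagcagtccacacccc

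Values are log2 RMA signals, the deposited unit, in which 1 unit is a doubling. Over the whole table they ran from 1.04 to 12.5, with a median of 3.76. Differences are arrays labelled RictoraP2KO minus control. Rictor, the targeted gene, showed no fall with the deletion label. Its mean was 6.68 ± 0.08 with that label and 6.54 ± 0.06 in the controls (SD, n = 4). The Rictor difference was 0.145 (SE 0.063, adjusted p = 0.685, limma) with an interval from 0.0017 to 0.29, and it did not pass. The groups overlapped, with control replicate 4 at 6.613 and replicate 3 labelled RictoraP2KO at 6.595. Whether the Rictor probe set covers the deleted part is not known here. All directions given are those of the labels alone. The tissue carried the markers of its label, with Adipoq between 10.85 and 11.08 and Ucp1 between 11.32 and 12.01 over the 8 arrays; Zic1, of the list of brown fat markers, lay below the array median in all of them. Markers of another tissue stood out in 3 arrays. Lung epithelium did so in control replicate 2 (list mean 2.76 above the gene means, the others at most -0.31). Neurons did so in control replicate 3 (1.12, the others at most -0.08), and skeletal muscle in replicate 2 labelled RictoraP2KO (1.24, the others at most -0.07). Cyp2f2 of the lung list was not raised in control replicate 2, at 7.03, and was highest in control replicate 4, at 8.37.

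No gene of the list passed the test. At a limma adjusted p under 0.05, 0 of 30 were called, where 0.00532% of the 18782 genes were, and the smallest adjusted p was 0.649. At an unadjusted limma p under 0.05 there were 2 genes, Acss2 and Mlxipl, both lower in the arrays labelled RictoraP2KO. Over all genes 3.56% met that rule in that direction and 6.48% in either. The count was 1 without replicate 2 or 4 labelled RictoraP2KO or control replicate 2, and 4 without replicate 3 labelled RictoraP2KO. Signs were uneven by step. All 7 supply genes and all 5 synthesis genes had a difference below 0, against 3 of 7 elongation and desaturation genes and 6 of 11 activation and esterification genes. That made 21 of 30 below 0, where 53.2% of all genes were below 0 and 46.8% above. The median difference was -0.10 over the list and -0.0080 over all genes. The list median was -0.045 without replicate 2 labelled RictoraP2KO and -0.15 without replicate 4. By step the medians were -0.24 for supply, -0.16 for synthesis, 0.0025 for elongation and desaturation, and -0.025 for activation and esterification. The groups were free of overlap in 0 of the 30 genes and in 3.57% of all genes. Without replicate 2 labelled RictoraP2KO the synthesis median was 0.0017, the supply median -0.15 and the activation and esterification median -0.089, which was 0.037 without control replicate 3.

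**Figure D1:**
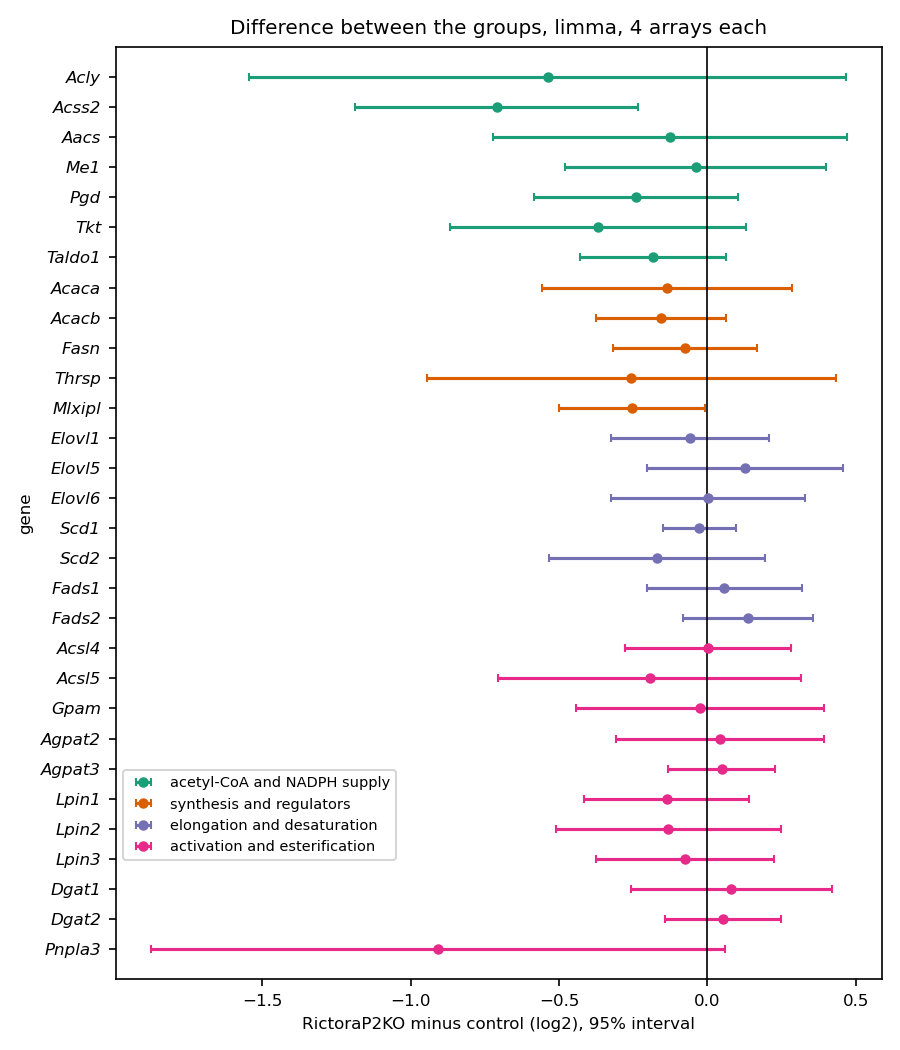
Difference between arrays labelled RictoraP2KO and control arrays (log2, horizontal axis) for the 30 measured genes, with the limma 95% interval (n = 4 arrays per group), coloured by step. The intervals of Acss2 and Mlxipl do not reach 0 before adjustment, and the supply and synthesis genes all lie to the left of 0.

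Among the genes that supply acetyl-CoA, the signal of Acss2 had the smallest p of the list. Acss2 makes acetyl-CoA from acetate in the cytosol and nucleus. Its signal was 7.56, 7.12, 8.08 and 7.74 in replicates 1 to 4 labelled RictoraP2KO and 8.46, 8.45, 7.89 and 8.53 in control replicates 1 to 4. Control replicates 1, 2 and 4 lay above every array labelled RictoraP2KO, and control replicate 3 lay inside their range. The means were 7.62 ± 0.40 against 8.33 ± 0.30 (SD, n = 4), a difference of -0.71 (SE 0.21; adjusted p = 0.649, limma) with an interval from -1.19 to -0.23. This is a signal 1.64 times as high in the controls, and the difference did not pass. It stayed between -0.86 and -0.54 when single arrays were left out.

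Acly, which cleaves citrate to acetyl-CoA, varied far more between arrays than between groups. Its values were 8.56, 7.03, 8.68 and 8.51 in replicates 1 to 4 labelled RictoraP2KO and 8.67, 9.07, 7.74 and 9.45 in control replicates 1 to 4. In each group 1 array was low, replicate 2 labelled RictoraP2KO and control replicate 3, and the groups overlapped. The groups differed by -0.54 (SE 0.443; adjusted p = 0.821, limma), by -0.15 without the former array and by -0.87 without the latter. Aacs, which activates the ketone body acetoacetate for lipid synthesis, differed by -0.13 (SE 0.263; adjusted p = 0.938, limma); its lowest and highest arrays were replicate 2 labelled RictoraP2KO at 6.77 and control replicate 4 at 8.10.

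None of the 4 genes placed with NADPH supply had an unadjusted p under 0.05. Of them, Me1 and Pgd encode the enzymes that make NADPH. Me1, the cytosolic malic enzyme, had values of 9.35, 9.87, 10.15 and 10.12 in replicates 1 to 4 labelled RictoraP2KO and 10.23, 9.86, 9.59 and 9.97 in control replicates 1 to 4, a difference of -0.04 (SE 0.194; adjusted p = 0.978, limma) with an interval from -0.48 to 0.40. Replicate 1 labelled RictoraP2KO was its lowest array, and without it the difference was 0.14. Me1 was read by a second probe set too, whose difference was -0.07 (SE 0.216). Pgd, the phosphogluconate dehydrogenase of the oxidative pentose phosphate branch, differed by -0.24 (SE 0.152; adjusted p = 0.773, limma), also with its lowest value in replicate 1 labelled RictoraP2KO, and by -0.10 without that array. Tkt and Taldo1, transketolase and transaldolase of the non-oxidative branch, differed by -0.37 (SE 0.22; adjusted p = 0.767, limma) and -0.18 (SE 0.108). Both were lowest in replicate 2 labelled RictoraP2KO, Tkt at 8.46 where the other arrays ran from 9.04 to 9.75. Without that array their differences were -0.16 and -0.080.

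The carboxylases and fatty acid synthase, which build the chain, had differences that did not pass. Acaca, the acetyl-CoA carboxylase of the cytosol, had values of 10.19, 9.88, 10.71 and 10.53 in replicates 1 to 4 labelled RictoraP2KO and 10.67, 10.45, 10.14 and 10.59 in control replicates 1 to 4. Its difference was -0.14 (SE 0.186; adjusted p = 0.894, limma), and its second probe set gave -0.22 (SE 0.209). Acacb, whose product restrains the entry of fatty acids into mitochondria, differed by -0.16 (SE 0.0965; adjusted p = 0.767, limma). Fasn, fatty acid synthase, had values of 11.36, 11.19, 11.58 and 11.55 in replicates 1 to 4 labelled RictoraP2KO and 11.56, 11.54, 11.28 and 11.60 in control replicates 1 to 4, so the groups covered almost the same range. The Fasn difference was -0.08 (SE 0.107; adjusted p = 0.898, limma), with an interval from -0.32 to 0.17. Both directions lie inside that interval. In all 3 genes the lowest array was replicate 2 labelled RictoraP2KO, and without it the differences of Acaca, Acacb and Fasn were 0.014, -0.081 and 0.0017.

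Of the 2 regulators placed with this step, Mlxipl encodes ChREBP, the carbohydrate-responsive activator of lipogenic genes. Its signal was 8.52, 8.21, 8.50 and 8.18 in replicates 1 to 4 labelled RictoraP2KO and 8.43, 8.55, 8.66 and 8.77 in control replicates 1 to 4. Replicates 2 and 4 labelled RictoraP2KO were the lowest arrays, while replicates 1 and 3 lay between the lowest control and the next. The means were 8.35 ± 0.18 against 8.60 ± 0.15 (SD, n = 4), a difference of -0.25 (SE 0.108; adjusted p = 0.678, limma), which did not pass. Thrsp encodes a small protein tied to lipid synthesis and is a known ChREBP target. Its values were 10.34, 9.14, 10.33 and 10.37 in replicates 1 to 4 labelled RictoraP2KO and 10.30, 10.46, 9.74 and 10.70 in control replicates 1 to 4. Replicate 2 labelled RictoraP2KO and control replicate 3 were low, and the other arrays lay between 10.30 and 10.70. The Thrsp difference was -0.26 (SE 0.304; adjusted p = 0.872, limma), and 0.05 without replicate 2 labelled RictoraP2KO.

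**Figure D2:**
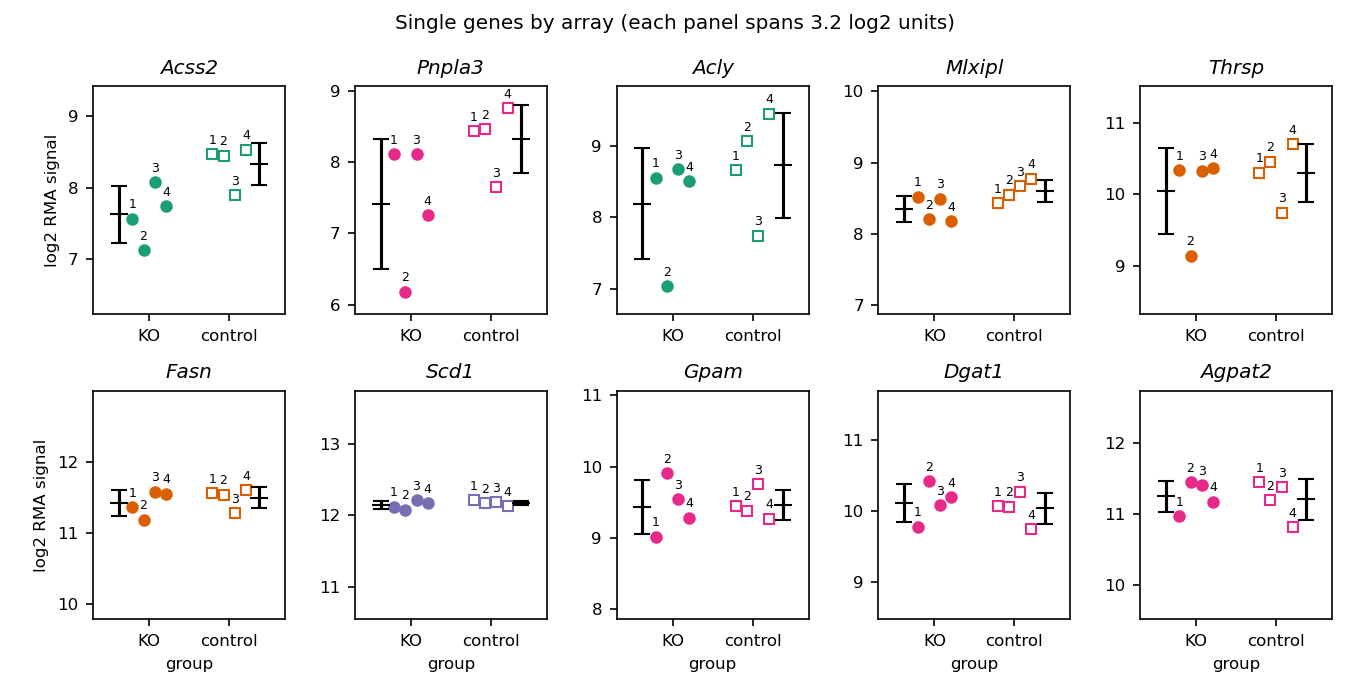
Log2 RMA signal of 10 genes in each array, numbered by replicate, with filled circles for arrays labelled RictoraP2KO (KO) and open squares for control; the bars give mean ± SD (n = 4). Acly, Thrsp and Pnpla3 are lowest in KO 2 and lower in control 3 than in the other controls, Gpam and Dgat1 are highest in KO 2, and Scd1 hardly varies.

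Elongases and desaturases showed no common direction. Elovl6, which extends palmitate to stearate, had values of 10.56, 10.87, 11.27 and 11.07 in replicates 1 to 4 labelled RictoraP2KO and 11.09, 10.82, 11.01 and 10.84 in control replicates 1 to 4. The arrays labelled RictoraP2KO held both its lowest value and its highest, and the difference was 0.0025 (SE 0.144; adjusted p = 0.998, limma) with an interval from -0.32 to 0.33. Elovl5, an elongase of polyunsaturated fatty acids, differed by 0.13 (SE 0.145; adjusted p = 0.866, limma), and Elovl1, which makes very long saturated chains, by -0.06 (SE 0.117). The Elovl5 difference was 0.015 without replicate 3 labelled RictoraP2KO and 0.23 without replicate 1.

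Scd1, the stearoyl-CoA desaturase that makes oleate, lay near the top of the array's range. It stood at 12.12, 12.08, 12.21 and 12.17 in replicates 1 to 4 labelled RictoraP2KO and at 12.21, 12.17, 12.18 and 12.13 in control replicates 1 to 4, where the highest value of any probe set was 12.5. Its 8 values spanned 0.13, the narrowest range of the 30 genes, and its difference was -0.028 (SE 0.0542; adjusted p = 0.934, limma) with an interval from -0.15 to 0.10. Scd2, another desaturase of the same family, varied more, with values of 8.14, 7.54, 8.11 and 8.02 in replicates 1 to 4 labelled RictoraP2KO and 8.28, 8.11, 7.78 and 8.32 in control replicates 1 to 4. The Scd2 difference was -0.17 (SE 0.16; adjusted p = 0.842, limma), -0.032 without replicate 2 labelled RictoraP2KO and -0.28 without control replicate 3. Fads1 and Fads2, the desaturases of polyunsaturated fatty acids, differed by 0.06 (SE 0.115) and 0.14 (SE 0.0968; adjusted p = 0.794, limma). Both were highest in replicate 1 labelled RictoraP2KO, at 7.03 and 7.06, where the other arrays ran from 6.49 to 6.67 for Fads1 and from 6.58 to 6.69 for Fads2. Without that array the differences were -0.06 and 0.04.

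The genes of activation and of the first acylations had differences that did not pass. Acsl4, the acyl-CoA synthetase that prefers arachidonate, differed by 0.0015 (SE 0.123; adjusted p = 0.999, limma), and Acsl5, another long-chain acyl-CoA synthetase, by -0.19 (SE 0.225; adjusted p = 0.868, limma). The Acsl5 difference was -0.026 without replicate 1 labelled RictoraP2KO and -0.37 without replicate 3. Gpam, the mitochondrial acyltransferase that starts glycerolipid synthesis, had values of 9.02, 9.91, 9.54 and 9.28 in replicates 1 to 4 labelled RictoraP2KO and 9.45, 9.38, 9.76 and 9.27 in control replicates 1 to 4. Replicates 1 and 2 labelled RictoraP2KO were the lowest and the highest of all 8 arrays, and the controls lay between them. Its difference was -0.025 (SE 0.184; adjusted p = 0.984, limma) with an interval from -0.44 to 0.39. Agpat2 and Agpat3, which add the second acyl chain, differed by 0.04 (SE 0.154) and 0.05 (SE 0.0793), and both were lowest in control replicate 4.

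The phosphatidate phosphatases, or lipins, remove the phosphate before the last acylation. Lpin1 differed by -0.14 (SE 0.122; adjusted p = 0.836, limma) and Lpin2 by -0.13 (SE 0.167; adjusted p = 0.882, limma). The former was -0.037 without replicate 3 labelled RictoraP2KO and -0.23 without replicate 4, and the latter -0.016 without control replicate 1 and -0.30 without control replicate 4. Lpin3 lay below the array median of 3.76 in all 8 arrays and differed by -0.07 (SE 0.132). Dgat1 and Dgat2, unrelated enzymes that each add the third acyl chain, had differences above 0 that did not pass. For Dgat1 the values were 9.78, 10.42, 10.08 and 10.19 in replicates 1 to 4 labelled RictoraP2KO and 10.07, 10.06, 10.27 and 9.75 in control replicates 1 to 4, a difference of 0.08 (SE 0.149; adjusted p = 0.928, limma) with an interval from -0.26 to 0.42. For Dgat2 the values were 11.39, 11.05, 11.12 and 11.32 in the arrays labelled RictoraP2KO and 11.10, 11.24, 11.12 and 11.21 in the controls, a difference of 0.05 (SE 0.086; adjusted p = 0.915, limma) with an interval from -0.14 to 0.25. For each of them the 2 groups covered overlapping ranges.

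Pnpla3, a lipid droplet protein related to adipose triglyceride lipase whose transcript is known to rise on feeding, had the largest difference and the widest spread of the list. Its signal was 8.10, 6.18, 8.10 and 7.25 in replicates 1 to 4 labelled RictoraP2KO and 8.43, 8.46, 7.64 and 8.75 in control replicates 1 to 4. Replicates 2 and 4 labelled RictoraP2KO were below every control, and replicates 1 and 3 were above control replicate 3. The means were 7.41 ± 0.91 against 8.32 ± 0.47 (SD, n = 4), a difference of -0.91 (SE 0.426; adjusted p = 0.71, limma) with an interval from -1.88 to 0.06. Without replicate 2 labelled RictoraP2KO the difference was -0.50, and without replicate 1 it was -1.14.

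**Figure D3:**
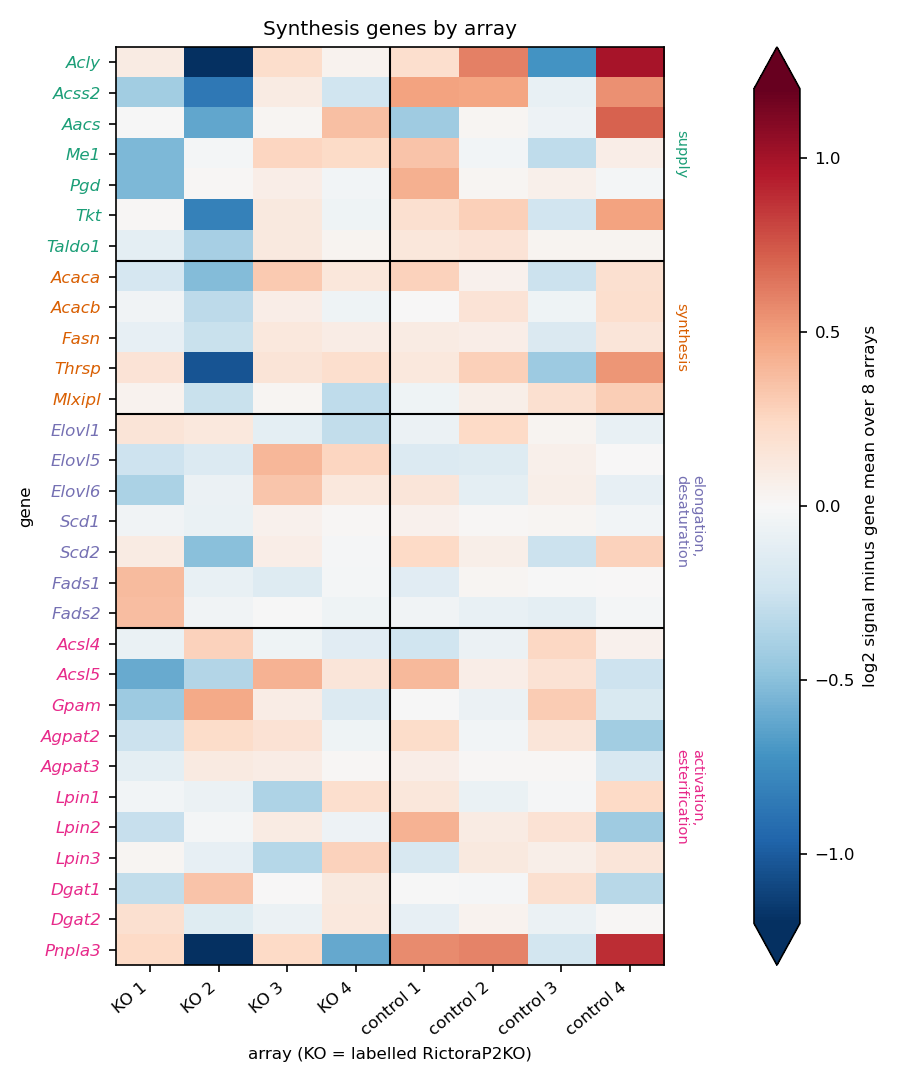
Log2 signal of each of the 30 genes in each array minus the gene's mean over the 8 arrays, with genes in rows grouped by step and arrays in columns; blue is lower and red higher, and the colour scale ends at 1.2 in each direction. Column KO 2 is blue from Acly to Mlxipl apart from Me1 and Pgd, and again at Scd2 and Pnpla3, and control 4 is red in most of the same rows.

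The arrays were ordered alike in many genes of the list, and the order cut across the groups. For 10 genes the lowest array was replicate 2 among those labelled RictoraP2KO and replicate 3 among the controls (for Taldo1 tied with replicate 4). They were Acly, Acss2, Tkt, Taldo1, Acaca, Acacb, Fasn, Thrsp, Scd2 and Pnpla3. For 7 other genes it was replicate 1 and control replicate 4: Pgd, Acsl5, Gpam, Agpat2, Agpat3, Lpin2 and Dgat1. Control replicate 4 was the highest of all 8 arrays for 11 genes, among them Acly, Fasn, Thrsp and Pnpla3, and the lowest for Agpat2, Agpat3, Lpin2 and Dgat1. These sets were read from the values and have no test. The share of all measured genes with the same lowest arrays was not counted. Whether the order is particular to this list is therefore not known.

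The same arrays differed in markers of cell types. Replicate 2 labelled RictoraP2KO had the highest sum of log2 signals over 10 of 10 skeletal muscle markers (43.5, the other arrays 28.6 to 30.4). Its sum was also the highest over the 9 cardiac muscle markers measured of 10 listed, at 66.3. The lowest array labelled RictoraP2KO stood at 41.7, and the controls ran from 45.0 to 58.1. The cardiac list varied over all arrays. Its list mean was 1.55 in replicate 2 labelled RictoraP2KO, -1.19 to -0.0007 in the other arrays with that label and -0.82 to 0.63 in the controls. The sum of replicate 2 labelled RictoraP2KO was the highest too over the 9 B cell markers measured of 10 listed (40.2, with controls 29.1 to 33.5). Single markers could differ, as Myh2 of the skeletal list was highest in control replicate 3 and Sln of the cardiac list in control replicate 1. RMA signals have no true 0, and 3, 2 and 3 markers of these lists lay below the array median in every array. Over 9 of 10 fat cell markers the list mean was -0.09 in replicate 2 labelled RictoraP2KO and between -0.07 and 0.29 in the others. Without Lep, the leptin gene, it was -0.093 there and ran from -0.089 in control replicate 1 to 0.074 in control replicate 3. The supply genes stood at -0.59 there and the synthesis genes at -0.48. Control replicate 3 carried the signal of neurons (sum over the 12 markers 50.4, against 33.8 to 35.6 in the arrays labelled RictoraP2KO). Of these markers Chga was highest in control replicate 1 and Chgb in replicate 2 labelled RictoraP2KO. In control replicate 3 the supply genes stood at -0.19 and the synthesis genes at -0.14. The list mean of the 8 smooth muscle markers ran from -0.31 in control replicate 2 to 0.29 in replicate 2 labelled RictoraP2KO. Control replicates 3 and 4 stood at 0.25 and 0.27 there, though Smtn of this list was highest in replicate 4 labelled RictoraP2KO. Without control replicates 2 and 3 and replicate 2 labelled RictoraP2KO, the list median was -0.07 with 20 of 30 genes below 0, and 0 passed. Only control replicates 1 and 4 were then left among the controls, so that 0 passed says little. Between the groups, all 10 macrophage markers had a difference above 0 (summed signal 67.1 to 73.8 against 66.9 to 69.8 in controls), 3 of them at an unadjusted p under 0.05 and 0 adjusted. All 9 B cell markers had one above 0, with a list mean of 0.84 in replicate 2 labelled RictoraP2KO and -0.39 to 0.11 in the others. All 12 neuron markers had one below 0, with a list mean of 1.12 in control replicate 3 and -0.27 to -0.08 in the others. Over all genes 46.8% had a difference above 0 and 53.2% below, and 2.92% were higher at an unadjusted limma p under 0.05. The part of these cells in the values of the list was not tested. In whole tissue, fewer fat cells and less RNA per fat cell cannot be told apart.

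Replicate 1 labelled RictoraP2KO had the lowest mean of the 10 brown fat markers, -0.44, where the other arrays ran from -0.18 in control replicate 4 to 0.26. Much of this came from Elovl3, an elongase gene. Over the other 9 markers (here and for Lep, a choice made after the values were seen) replicate 1 stood at -0.18, control replicate 2 at -0.10 and control replicate 4 at -0.060. The high mean of fat cell markers in replicate 1, 0.29, rested on Lep at 5.81, where the other arrays ran from 2.74 to 3.75. Over the other 8 fat cell markers replicate 1 stood at 0.041, below control replicate 3 at 0.074 and replicate 3 labelled RictoraP2KO at 0.049. The activation and esterification genes had their lowest mean in replicate 1 labelled RictoraP2KO too, -0.15. Whether the makeup of the fat accounts for this was not tested.

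**Figure D4:**
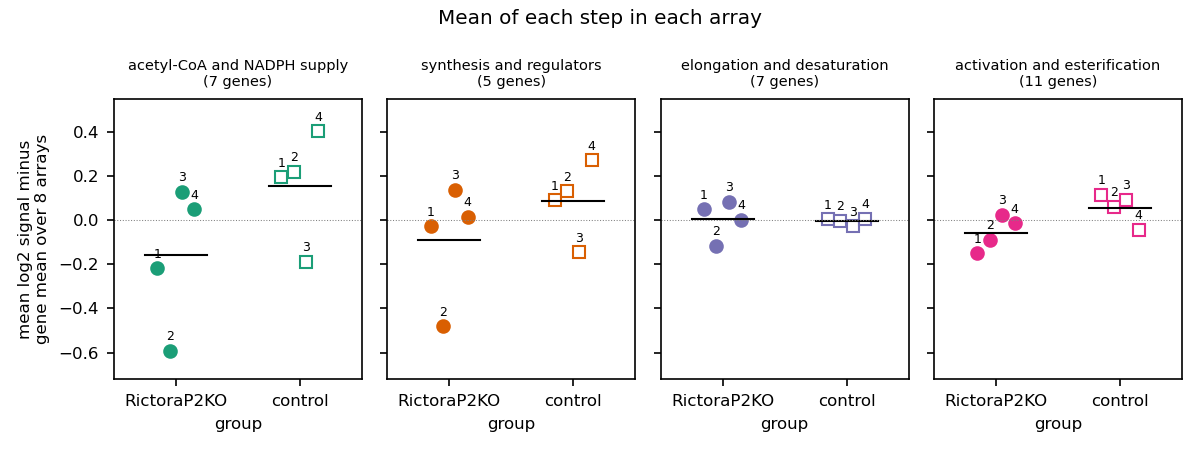
Mean over the genes of each step of the log2 signal minus the gene's mean over 8 arrays, for each array (points, numbered by replicate; filled for arrays labelled RictoraP2KO, open for control), with the group mean as a line. Supply and synthesis are lowest in replicate 2 labelled RictoraP2KO, at -0.59 and -0.48, and control replicate 3 lies below the other controls in both; elongation and desaturation stays between -0.12 and 0.08.

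Other genes placed with the same steps were taken from a second list. It also holds genes that work against those steps, such as Pnpla2 and Mlycd, and is not matched to the first list. Of its 54 genes, 50 had a probe set of their own. As many lay above 0 as below, 25 each, with a median of 0.00063, and 0 passed at a limma adjusted p under 0.05. Only 1 had an unadjusted p under 0.05. This gene, Srebf1, which encodes the SREBP1 proteins, was 7.47, 6.999, 7.50 and 7.28 in replicates 1 to 4 labelled RictoraP2KO and 6.98, 7.04, 7.13 and 6.88 in control replicates 1 to 4, a difference of 0.30 (SE 0.115; adjusted p = 0.668, limma). Its sign was opposite to that of the supply and synthesis genes, and 2.92% of all genes had an unadjusted p under 0.05 in that direction. Replicate 2 labelled RictoraP2KO lay among the controls, and the other 3 lay above them.

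In supply, the smallest p-values belonged to the mitochondrial malic enzymes Me3 (-0.42, SE 0.206) and Me2 (0.12, SE 0.0940). In elongation and desaturation they belonged to the desaturase paralog Scd4 (0.10, SE 0.0546) and to Hacd2, a dehydratase of the elongation cycle (0.16, SE 0.0884). In esterification they belonged to Mogat1, a monoacylglycerol acyltransferase (-0.43, SE 0.194), and Agpat4, of the same family as Agpat2 (0.14, SE 0.0738). None of these 6 passed. Scd4, at 2.69 to 2.91, lay below the median of 3.76 in all 8 arrays, and Agpat4, at 3.48 to 3.825, lay around it. Elovl3, an elongase that brown fat raises in the cold and a marker of that fat here, was singled out after its values were seen. It ran from 6.84 in replicate 1 labelled RictoraP2KO to 10.75 in replicate 2, a wider range than any of the 30 genes, with controls between 8.29 and 10.59. The difference was -0.23 (SE 0.853; adjusted p = 0.971, limma). Slc25a1, the carrier that brings citrate to Acly and was also picked after its values were seen, had values of 10.05, 9.43, 10.49 and 10.26 in replicates 1 to 4 labelled RictoraP2KO and 10.40, 10.31, 9.72 and 10.59 in control replicates 1 to 4. Its low arrays were those of Acly, replicate 2 and control replicate 3, and it differed by -0.20 (SE 0.248; adjusted p = 0.88, limma).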

How the data were processed

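Per the submitters' processing notes, the authors made the deposited log2 values with RMA (Affymetrix Power Tools 1.10.2). The table holds 28371 probe sets by 8 arrays, 1 array per sample. RMA corrects background, normalises quantiles and summarises probes, so a difference in total RNA output would not be seen. The array design's genome build: not given in the sources used here. In the platform annotation 21158 probe sets had 1 symbol, 1881 had several and 5332 had no symbol. A gene with several probe sets was read by that of highest mean, which left 18782 genes.

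All probe sets were fitted with limma 3.58.1 (lmFit, eBayes, two-sided, R 4.3.3), with Benjamini-Hochberg adjustment, a threshold of 0.05 and intervals at 95%. The code was tested on simulated data. Members and lists were chosen with earlier results of these data known. All members are named. Values in every array were set for genes with an unadjusted p under 0.05 and for 10 enzymes by name, and other pathway genes are named by smallest p in each step. Pnpla3, Thrsp, Scd2 and Slc25a1 are given in full beyond that rule, for the array pattern, and Elovl3 by its range. A list mean averages log2 values minus each gene's mean over 8 arrays. Lists have no test of their own. Alternatives were a filter on dim probe sets, 2 normalisations, 2 moderations, array weights, the replicate block, all probe sets of a gene, and arrays left out. The number of arrays limits the precision.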

Additional observations from a re-analysis of the deposited data

Results flagged for a closer look

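In groups of 4 arrays, a value was singled out when its gap to the nearest array, as a share of the range of the group, exceeded the 95% critical value of Dixon. Chance does this in about 1 of 20 groups; 60 groups were examined and 4 values met the rule. Acly in replicate 2 labelled RictoraP2KO stood at 7.03, with the nearest array of its group at 8.51. Thrsp in the same array stood at 9.14, with the nearest at 10.33. Acss2 in control replicate 3 stood at 7.89, with the nearest at 8.45. Fads2 in replicate 1 labelled RictoraP2KO stood at 7.06, with the nearest at 6.69.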

How the results depend on the processing

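Over 17 alternatives 0 of 30 genes passed at an adjusted p under 0.05, the smallest being 0.397 (Acss2 without replicate 3 labelled RictoraP2KO), and 15 genes kept their sign in all. The count at an unadjusted p under 0.05 was 2; it was 1 without dim probe sets and with the replicate block, 4 without the 3 arrays with foreign signal, and 1 to 4 when single arrays were left out (Acss2 in each). Genes below 0 numbered 20 to 24. Arrays with the same replicate number showed no sign of pairing (correlations of deviations from -0.154 to 0.087, and 0 of 4 highest with their own number). With so few arrays, some with signal of another tissue, this check cannot exclude a pairing. With array weights Me1 was 0.027 and Acsl4 -0.029; without the 3 arrays Lpin3 was 0.0090. Leaving out single arrays turned the sign of 15 genes, with ranges of -0.29 to 0.091 for Aacs, -0.15 to 0.14 for Me1, -0.26 to 0.014 for Acaca, -0.15 to 0.0017 for Fasn, -0.44 to 0.046 for Thrsp, -0.12 to 0.029 for Elovl1, -0.11 to 0.13 for Elovl6, -0.061 to 0.12 for Fads1, -0.089 to 0.086 for Acsl4, -0.18 to 0.12 for Gpam, -0.088 to 0.13 for Agpat2, -0.0088 to 0.093 for Agpat3, -0.18 to 0.028 for Lpin3, -0.0204 to 0.19 for Dgat1 and -0.0042 to 0.11 for Dgat2. The cause was not tested.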
